A study of Mus musculus with 6 samples.

Results

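The T and NK cell genes are 42 genes, chosen by symbol, that encode the T cell receptor complex and its first signalling proteins, other surface molecules of T cells, the coreceptors and transcription factors of T cell subsets, and the effector proteins and receptors of cytotoxic T cells and natural killer (NK) cells. All 42 were among the 24062 gene symbols of the count table, and all 42 were among the 15222 genes with enough counts to test. The choice used no measured value of these libraries, although earlier results of the data were known when it was made. RNA of aortic arch plaque was sequenced in 6 libraries from mice of the C57BL/6 strain that are prone to atherosclerosis, 3 of a vehicle group and 3 of a group treated with ABT263. The genetic background and the diets were common to both groups: 12 weeks of the high-fat diet TD88137, which raises blood cholesterol in these mice, were followed by 3 weeks of low-fat diet. ABT263 (navitoclax, an inhibitor of survival proteins of the BCL-2 family that is used to kill senescent cells) was given by intraperitoneal injection at 100 mg/kg, 1 dose per day, in week 1 of low-fat feeding, and the number of doses is not given in the sources used here. Neither age nor sex is stated in the labels, nor is it stated that each library came from a separate animal, so a p-value measures only the spread between these samples, which may be technical. The question put by the title of the series is how senescent cells bear on repair by vascular smooth muscle. The comparison made here asks how the T and NK cell genes differed between the ABT263 and the vehicle libraries.

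T cells recognise peptides through a receptor whose signals are carried by the CD3 chains and the zeta chain. The kinase Lck phosphorylates those chains, the kinase Zap70 binds to them, and the adapter Lat passes the signal on. CD8 T cells and NK cells kill target cells by releasing perforin and granzymes, CD4 T cells direct other immune cells, and regulatory T cells restrain them. In atherosclerotic plaque T cells lie mainly among macrophages and near the cap, and T helper cells that use the transcription factor T-bet are known to promote lesions in mice. Survival of lymphocytes depends on BCL-2 family proteins, and a low lymphocyte count is a known effect of the drug class to which ABT263 belongs.

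Library totals ran from 62930547 to 110452098 counts, and between 16889 and 17419 symbols had at least 1 count in a library. Levels are given as CPM, the library-scaled read count after TMM normalisation. A gene without any count may still have had a level of up to 3 counts, which was 0.0278 CPM in the deepest library and 0.048 CPM in the library where it was highest (counting error only). Smooth muscle markers summed to between 2370 and 15400 CPM per library and macrophage markers to between 3670 and 15400 CPM, so the defining cells of plaque were represented in all 6 libraries. ABT263 replicate 2 stood apart, with a mean level of adipocyte markers of 9.17 on the log2 CPM scale against -0.03 to 0.82 in the other libraries. In vehicle replicate 2 the endothelial markers summed to 401 CPM, against 1610 to 4520 CPM in the other libraries. Skeletal muscle markers summed to 37.8 CPM in ABT263 replicate 3, against 3.93 to 5.88 CPM in the other libraries. The part of these differences in the results below was not tested. Pan-leukocyte genes, such as Ptprc (Cd45) and Coro1a, were also lower with ABT263, with 12 of 12 negative log2 fold changes and a median of -0.83. Fibroblast and smooth muscle markers had medians of 1.64 and 1.51 in the opposite direction, and their part in the results below was not tested. In neither list did a gene have each ABT263 library above each vehicle library. Smooth muscle markers had a list mean of 7.95, 10.59 and 10.01 on the log2 CPM scale in ABT263 replicates 1 to 3. The vehicle libraries stood at 8.015 to 8.441, so replicate 1 did not share the rise. In bulk tissue, fewer cells of a type and less RNA per cell cannot be told apart.

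Every one of the 42 genes had a lower fitted level with ABT263 than with vehicle, whereas 49.9% of all genes tested had a negative log2 fold change (ABT263 over vehicle). The median log2 fold change was -1.23, with a range of -3.29 (Nkg7) to -0.33 (Thy1), and the median over all genes tested was 0.0008. None of the 42 passed an adjusted p of 0.05 by the quasi-likelihood F-test of edgeR, which called 0% of all genes tested in either direction. The smallest adjusted p over all genes was 0.592. At an unadjusted p under 0.05, 21 of the 42 were lower and 0 were higher, against 3.68% of all genes tested that were lower. For 21 of the 42, each ABT263 library lay below each vehicle library, and 6.31% of all genes tested had that pattern. By the adjusted p of DESeq2, 3 of the 42 were called lower (Rhoh, Prf1 and Nkg7), against 0.552% of all genes. The limma-voom test called 0% of all genes after adjustment, and at an unadjusted p under 0.05 it had 25 of the 42 lower, against 3.25% of all genes.

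These counts depended on single libraries. Without vehicle replicate 2, the number of the 42 lower at an unadjusted p under 0.05 was 7, with 3.96% of all genes lower by the same rule. It was 8 without ABT263 replicate 3 (2.29% of all genes), 11 without ABT263 replicate 1 (3.43%) and 12 without vehicle replicate 3 (3.46%). It was 33 without ABT263 replicate 2, where the share of all genes was 2.73%. Leaving out that library also gave 33 genes whose groups did not overlap, with 9.12% of all genes, and a median log2 fold change of -1.86.

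**Figure D1:**
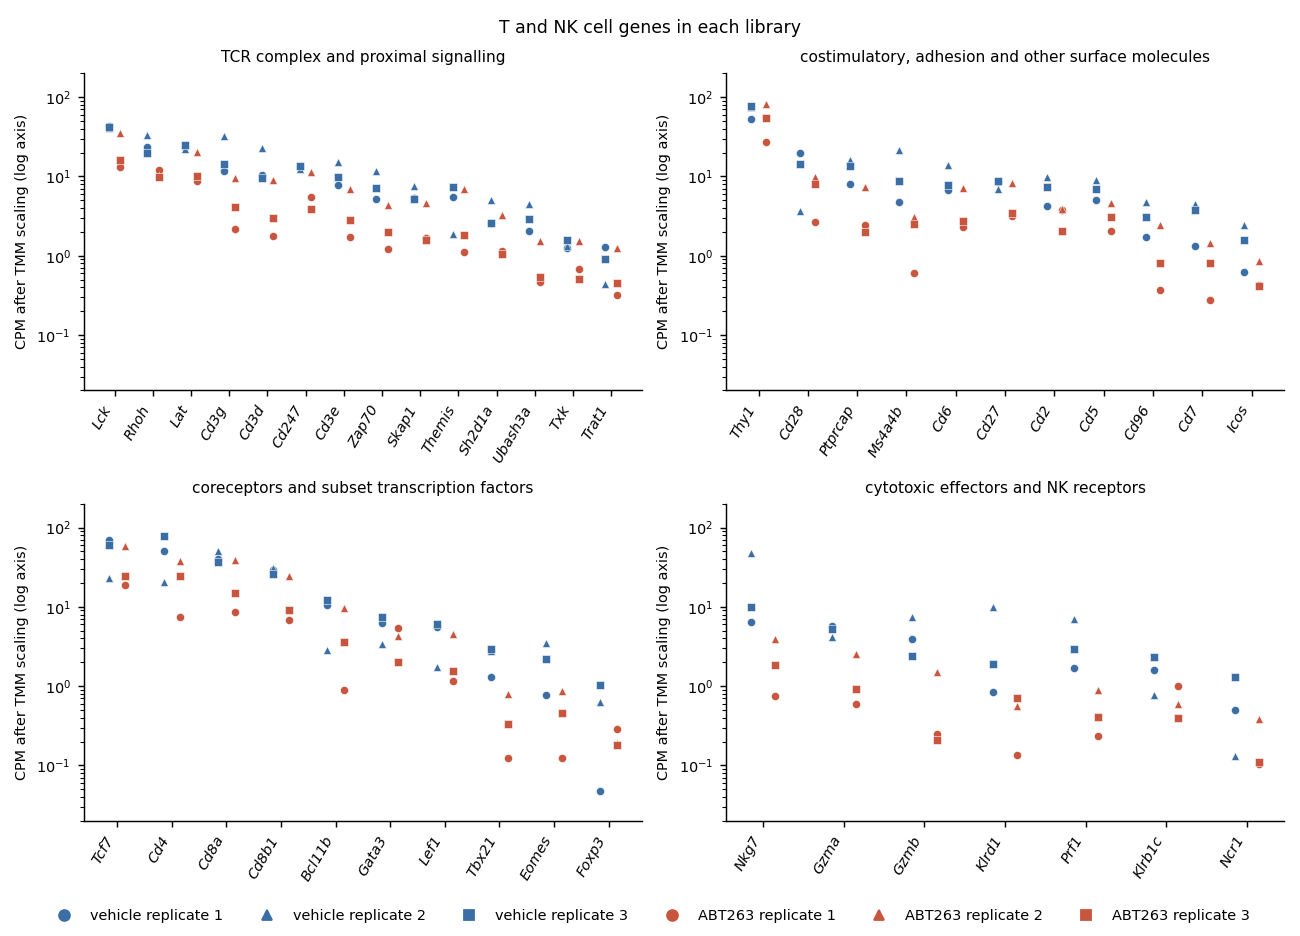
CPM after TMM scaling (log axis) of the 42 T and NK cell genes in the 6 libraries, in 4 panels by role, with 1 symbol per library (blue, vehicle; red, ABT263). ABT263 replicate 1 held the lowest value of the 6 libraries for 30 genes and ABT263 replicate 3 for 11, whereas ABT263 replicate 2 lay nearer to the vehicle libraries.

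The T cell receptor complex and its first signalling proteins made up 14 of the genes. All 14 had negative log2 fold changes (median -1.08), 9 had an unadjusted p under 0.05 and 10 had groups that did not overlap. Over all genes tested, 3.68% were lower at that p and 6.31% had ABT263 below vehicle without overlap. The same shares stand beside the counts of the other role groups below. Among the receptor chains, Cd3g, the gamma chain of CD3, stood at 11.7, 32.4 and 14.2 CPM in vehicle replicates 1 to 3 and at 2.15, 9.55 and 4.15 CPM in ABT263 replicates 1 to 3. Each ABT263 value was below the lowest vehicle value, and vehicle replicate 2 was the highest (log2 fold change -1.88, SE 0.645, edgeR adjusted p = 0.592). Cd3d, the delta chain, stood at 10.5, 22.5 and 9.62 CPM with vehicle and at 1.79, 8.98 and 3.03 CPM with ABT263. Its groups did not overlap, although ABT263 replicate 2 came within 1 CPM of vehicle replicate 3 (log2 fold change -1.63, SE 0.668). Cd3e, the epsilon chain, stood at 7.81, 15.1 and 9.9 CPM with vehicle against 1.72, 7.01 and 2.79 CPM with ABT263, again without overlap (log2 fold change -1.51, SE 0.568). Cd247, the zeta chain, differed from the other chains in that its vehicle libraries were close together. They stood at 13.2, 12.4 and 13.6 CPM, against 5.47, 11.3 and 3.91 CPM with ABT263 (log2 fold change -0.93, SE 0.407, edgeR unadjusted p = 0.0591). In GENCODE, 60.3% of the exon bases of Cd247 overlap those of Pou2f1 or of a predicted gene, so its counts are uncertain.

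The genes of the 3 CD3 chains lie together on mouse chromosome 9 within 40056 bases (build mm10). Cd3g (44969572 to 44980431, minus strand) and Cd3d (44981786 to 44987339, plus strand) are transcribed away from each other from starts 1355 bases apart, and Cd3e (44998740 to 45009627) lies downstream of Cd3d on the minus strand. All 3 genes were highest in vehicle replicate 2 and had ABT263 replicates 2, 3 and 1 in falling order. Genes on other chromosomes, such as Zap70 and Cd8a, had the same order, so it was not particular to this locus. The 250 bases before the RefSeq start of each CD3 gene are shown, 5′ to 3′ on the strand of the gene (GRCm38.p6). They are chr9:44980432-44980681 on the minus strand for Cd3g, chr9:44981536-44981785 on the plus strand for Cd3d and chr9:45009612-45009861 on the minus strand for Cd3e. Capitals mark exact matches, on either strand, to 5 short words: AGGAAG for ETS factors, TGTGGT for RUNX factors, CTTTGA for TCF/LEF factors, AGGTGT for T-box factors (the family of T-bet and Eomes) and CAGGTG for an E-box.
Cd3g: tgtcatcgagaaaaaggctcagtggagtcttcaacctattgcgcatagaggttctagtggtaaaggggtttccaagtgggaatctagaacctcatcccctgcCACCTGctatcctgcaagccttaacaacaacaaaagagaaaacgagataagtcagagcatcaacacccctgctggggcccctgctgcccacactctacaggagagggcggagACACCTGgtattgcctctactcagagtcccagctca
Cd3d: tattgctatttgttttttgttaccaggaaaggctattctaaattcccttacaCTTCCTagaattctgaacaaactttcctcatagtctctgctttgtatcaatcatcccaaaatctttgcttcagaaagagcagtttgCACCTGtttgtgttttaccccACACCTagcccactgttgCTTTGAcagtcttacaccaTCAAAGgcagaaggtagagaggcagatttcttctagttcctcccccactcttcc
Cd3e: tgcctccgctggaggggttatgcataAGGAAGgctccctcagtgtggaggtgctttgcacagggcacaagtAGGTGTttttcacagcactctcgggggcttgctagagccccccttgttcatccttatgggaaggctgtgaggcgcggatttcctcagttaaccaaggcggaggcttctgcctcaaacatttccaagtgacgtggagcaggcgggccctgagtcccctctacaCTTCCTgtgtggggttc
A T-box word was present in all 3 windows, an E-box word in those of Cd3g and Cd3d, and an ETS word in those of Cd3d and Cd3e. The Cd3d window alone of these held the TCF/LEF word, 73 and 54 bases before the start. In Cd3g the T-box and the E-box match nearest the start overlap, at 36 and 35 bases before it. A window of this kind was matched for 30 of the 42 genes and for 27025 genes in all. The T-box word was in 26.7% of the 30 and in 12% of all windows, the RUNX word in 30% and 14.2%, the ETS word in 40% and 29.2%, the E-box word in 26.7% and 17.1%, and the TCF/LEF word in 16.7% and 14.1%. Such a match describes the letters and shows no binding.

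Among the signalling proteins, Rhoh had the smallest p of the 42. Rhoh encodes a small GTPase of blood cells that helps Lck and Zap70 to act at the receptor. It stood at 23.3, 33.7 and 19.7 CPM with vehicle and at 11.9, 9.99 and 9.93 CPM with ABT263 (log2 fold change -1.27, SE 0.246, edgeR adjusted p = 0.592, DESeq2 adjusted p = 0.005). Unlike most of the 42, it was about equally low in all 3 ABT263 libraries, including replicate 2. Zap70 stood at 5.26, 11.7 and 7.2 CPM against 1.21, 4.36 and 2.01 CPM (log2 fold change -1.67, SE 0.558). Ubash3a, a protein that restrains receptor signalling, stood at 2.08, 4.51 and 2.93 CPM against 0.465, 1.54 and 0.547 CPM (log2 fold change -1.9, SE 0.602). Both had the order of libraries of Cd3g and Cd3e.

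Lck and Lat behaved like Cd247. These genes are named here because their vehicle libraries were seen to lie close together. Lck stood at 43, 41 and 41.4 CPM with vehicle and at 13.3, 35.7 and 16.2 CPM with ABT263 (log2 fold change -0.94, SE 0.377). Lat stood at 23.8, 22.2 and 25 CPM against 8.78, 20.1 and 10 CPM (log2 fold change -0.87, SE 0.336). In both genes ABT263 replicates 1 and 3 lay far below the vehicle libraries, and replicate 2 lay just under them. Without ABT263 replicate 2, the log2 fold change was -1.50 for Lck and -1.33 for Lat. Skap1, an adapter between the receptor and integrins, had a log2 fold change of -1.21 (SE 0.501), with no overlap. The other 4 genes had groups that overlapped. They were Sh2d1a (-0.92), the adapter of SLAM receptors, Txk (-0.61), a Tec family kinase, Themis (-0.58), an adapter needed for thymocyte selection, and Trat1 (-0.39), an adapter that binds the receptor complex. Themis was lowest of the vehicle libraries in replicate 2, with 5.57, 1.86 and 7.31 CPM, and stood at 1.11, 6.89 and 1.84 CPM with ABT263.

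**Figure D2:**
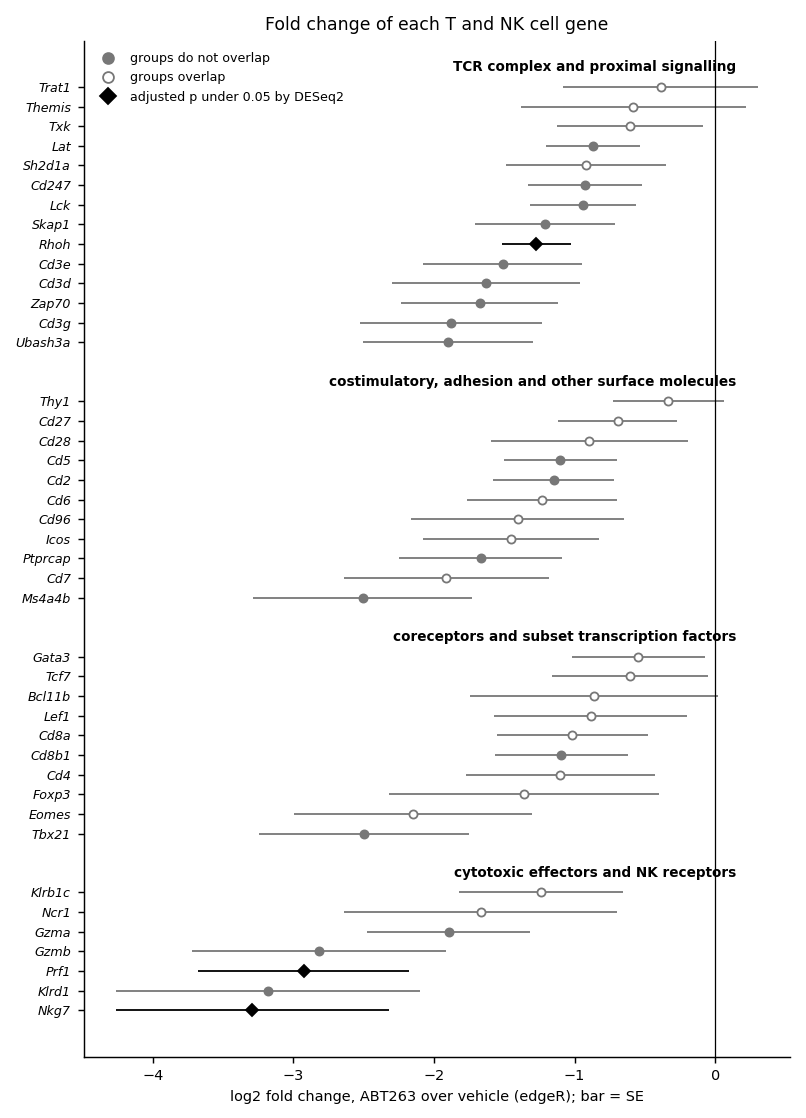
Log2 fold change (ABT263 over vehicle, edgeR) of the 42 genes by role, with bars of 1 SE on each side. All 42 points lie below 0, those of Nkg7 (-3.29), Klrd1 (-3.18), Prf1 (-2.93) and Gzmb (-2.82) are the farthest from it, and filled symbols mark the 21 genes whose groups did not overlap.

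The 11 costimulatory, adhesion and other surface molecules had a median log2 fold change of -1.23, with 5 at an unadjusted p under 0.05 and 4 without overlap. Ms4a4b, a membrane protein of T cells, stood at 4.74, 21.4 and 8.83 CPM with vehicle and at 0.599, 3.05 and 2.51 CPM with ABT263 (log2 fold change -2.51, SE 0.782, edgeR adjusted p = 0.592). Its value depended on vehicle replicate 2, without which it was -1.73. Ptprcap, a protein associated with Cd45, stood at 7.97, 15.9 and 13.6 CPM against 2.43, 7.4 and 1.98 CPM (log2 fold change -1.67, SE 0.577). All of its exon bases (100%) overlap Coro1b or Rps6kb2 in the annotation, so its counts are uncertain. Cd5, a receptor that dampens receptor signalling, stood at 5.09, 9.08 and 6.9 CPM against 2.06, 4.67 and 3.1 CPM (log2 fold change -1.1, SE 0.401). Cd2, an adhesion molecule, stood at 4.21, 9.84 and 7.46 CPM against 3.74, 3.93 and 2.03 CPM (log2 fold change -1.15, SE 0.428). In both genes the highest ABT263 value was within 1 CPM of the lowest vehicle value, so the groups were separated by a narrow gap.

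For the other 7 surface molecules the groups overlapped. Cd7 (-1.91), Icos (-1.45), a costimulator of activated T cells, Cd96 (-1.4), a receptor for nectins, and Cd6 (-1.23), a relative of Cd5, had the larger log2 fold changes. Cd28, the main costimulatory receptor (-0.9), and Cd27, a TNF receptor family member of T cells (-0.69), had smaller values. Cd28 stood at 20, 3.69 and 14.4 CPM with vehicle against 2.68, 9.78 and 7.99 CPM with ABT263, so that vehicle replicate 2 was the second lowest of the 6 libraries. Thy1, which fibroblasts also express, had the value closest to 0 (-0.33, SE 0.397). It was the 1 gene of the 42 that was highest in an ABT263 library, reaching 80.7 CPM in replicate 2 beside 26.8 and 55.3 CPM in ABT263 replicates 1 and 3 and 53, 75.2 and 76.7 CPM in the vehicle libraries. Fibroblast markers had a list mean of 8.7 on the log2 CPM scale in ABT263 replicate 2 against 5.84 to 7.25 in the other libraries. Pdgfra, Pi16, Dpt and Clec3b were highest in that library, but not every marker was. Lum was lowest there, at 539 CPM against 940 to 2760 CPM, and Dcn, at 1570 CPM, lay within the 1090 to 2890 CPM of the others. The list mean did not follow Thy1 in ABT263 replicate 1, where Thy1 was lowest. There the list stood at 6.71, above the 5.84 to 6.47 of the vehicle libraries. The part of fibroblast RNA in the Thy1 values was not tested.

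The 10 coreceptors and subset transcription factors had a median log2 fold change of -1.06, with 2 at an unadjusted p under 0.05 (Tbx21 and Eomes) and 2 without overlap (Tbx21 and Cd8b1). Without ABT263 replicate 2 the median was -1.77, and without vehicle replicate 3 it was -0.64. Tbx21, which encodes T-bet, the factor of type 1 helper T cells that also acts in CD8 T cells and NK cells, stood at 1.3, 2.76 and 2.97 CPM with vehicle and at 0.124, 0.786 and 0.337 CPM with ABT263. Its groups did not overlap, and its 12 to 53 counts per ABT263 library compared with 81 to 297 per vehicle library (log2 fold change -2.5, SE 0.746, edgeR adjusted p = 0.592). Eomes, the related factor of NK cells and memory CD8 T cells, stood at 0.784, 3.48 and 2.19 CPM against 0.124, 0.875 and 0.463 CPM (log2 fold change -2.15, SE 0.846). Its groups overlapped by a narrow margin, between ABT263 replicate 2 and vehicle replicate 1.

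Of the coreceptors, Cd8b1 stood at 28.8, 31 and 26.3 CPM with vehicle and at 6.83, 24.3 and 9.2 CPM with ABT263 (log2 fold change -1.1, SE 0.472). Its partner chain Cd8a stood at 39.6, 51 and 36.7 CPM against 8.66, 39.3 and 15 CPM (log2 fold change -1.02, SE 0.535), so that ABT263 replicate 2 lay within the vehicle range. Without that library the values were -1.83 for Cd8b1 and -1.84 for Cd8a. Cd4, the coreceptor of helper T cells, stood at 51.1, 20.6 and 77.7 CPM against 7.44, 38.1 and 24.2 CPM (log2 fold change -1.1, SE 0.674). Cd4 and the CD8 chains thus had similar fold changes and opposite orders of the vehicle libraries: replicate 2 was the highest of the 3 for both CD8 chains and the lowest for Cd4.

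Foxp3, the factor of regulatory T cells, was at the limit of detection in 1 vehicle library. It stood at 0.048, 0.631 and 1.04 CPM with vehicle, the first of these being 3 counts, and at 0.289, 0.193 and 0.182 CPM with ABT263 (log2 fold change -1.36, SE 0.96). Foxp3 was the only one of the 42 that was lowest in a vehicle library, and 31.5% of its exon bases overlap other genes. Tcf7 (-0.61) and Lef1 (-0.89), the TCF/LEF factors of naive T cells and thymocytes, Bcl11b (-0.86), which holds T cell identity, and Gata3 (-0.55), the factor of type 2 helper T cells, also had overlapping groups. Tcf7 stood at 69.2, 23.4 and 61 CPM with vehicle against 18.7, 58 and 24.3 CPM with ABT263, and Bcl11b at 10.4, 2.83 and 12.2 CPM against 0.899, 9.55 and 3.56 CPM. In these 2 genes ABT263 replicate 2 was close to vehicle replicates 1 and 3. Vehicle replicate 2 was close to ABT263 replicates 1 and 3 in Tcf7. In Bcl11b it was close to ABT263 replicate 3, and ABT263 replicate 1 was lower.

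The 7 cytotoxic effectors and NK receptors had the lowest median log2 fold change of the 4 role groups, -2.82, with 5 at an unadjusted p under 0.05 and 5 without overlap. The median was -2.02 without vehicle replicate 2. Nkg7, a protein of cytotoxic granules, stood at 6.38, 47.6 and 9.86 CPM with vehicle and at 0.744, 3.94 and 1.85 CPM with ABT263. The lowest vehicle value was above the highest ABT263 value, and vehicle replicate 2 was several times higher than the others (log2 fold change -3.29, SE 0.971, edgeR adjusted p = 0.592, DESeq2 adjusted p = 0.0167). Without that library Nkg7 was at -1.90. Prf1, perforin, stood at 1.68, 7.04 and 2.9 CPM against 0.238, 0.889 and 0.407 CPM (log2 fold change -2.93, SE 0.751, edgeR adjusted p = 0.592, DESeq2 adjusted p = 0.0122). Each ABT263 value was again below each vehicle value, and the log2 fold change was -2.17 without vehicle replicate 2. Gzmb, granzyme B, stood at 3.98, 7.34 and 2.41 CPM against 0.248, 1.5 and 0.21 CPM (log2 fold change -2.82, SE 0.905), and it was at -4.31 without ABT263 replicate 2. Gzma, granzyme A, had close vehicle values of 5.68, 4.18 and 5.28 CPM and stood at 0.599, 2.55 and 0.926 CPM with ABT263 (log2 fold change -1.9, SE 0.581). Both granzymes were lower in ABT263 replicates 1 and 3 than in replicate 2, and neither overlapped the vehicle range.

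Of the receptors of NK cells, Klrd1, which encodes CD94, stood at 0.832, 9.87 and 1.93 CPM with vehicle against 0.134, 0.563 and 0.701 CPM with ABT263 (log2 fold change -3.18, SE 1.08), and it was at -1.57 without vehicle replicate 2. Klrb1c, which encodes NK1.1, stood at 1.62, 0.77 and 2.33 CPM against 1, 0.593 and 0.393 CPM (log2 fold change -1.24, SE 0.585). Ncr1, which encodes NKp46 and marks NK cells and innate lymphoid cells, stood at 0.496, 0.13 and 1.29 CPM against 0.103, 0.385 and 0.112 CPM (log2 fold change -1.67, SE 0.97). Klrb1c and Ncr1, the classical markers of NK cells, had overlapping groups, and vehicle replicate 2 was their lowest vehicle library, whereas it was the highest by far for Klrd1 and Nkg7, which cytotoxic T cells also express.

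The 250 bases before the RefSeq start are shown for the 3 effector genes of largest log2 fold change with a RefSeq window, with capitals for the same 5 words (GRCm38.p6, strand of the gene). They are chr7:43436888-43437137 on the plus strand for Nkg7, chr10:61297586-61297835 on the plus strand for Prf1 and chr14:56262335-56262584 on the minus strand for Gzmb.
Nkg7: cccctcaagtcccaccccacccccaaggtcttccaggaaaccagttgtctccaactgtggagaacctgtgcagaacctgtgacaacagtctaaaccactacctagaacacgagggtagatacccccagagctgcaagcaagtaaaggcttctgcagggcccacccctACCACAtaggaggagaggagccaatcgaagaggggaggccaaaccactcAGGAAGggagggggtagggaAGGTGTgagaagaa
Prf1: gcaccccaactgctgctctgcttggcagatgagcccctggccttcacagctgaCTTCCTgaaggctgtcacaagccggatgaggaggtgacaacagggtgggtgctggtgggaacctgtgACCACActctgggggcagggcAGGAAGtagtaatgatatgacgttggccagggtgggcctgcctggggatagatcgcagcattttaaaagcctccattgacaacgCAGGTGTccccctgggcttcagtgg
Gzmb: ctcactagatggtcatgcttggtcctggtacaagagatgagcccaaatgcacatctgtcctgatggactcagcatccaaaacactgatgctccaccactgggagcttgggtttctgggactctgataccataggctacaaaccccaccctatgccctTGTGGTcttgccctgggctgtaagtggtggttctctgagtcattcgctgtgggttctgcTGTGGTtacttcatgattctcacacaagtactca
A RUNX word was present in all 3 windows, 2 times in Gzmb, and ETS and T-box words were present in Nkg7 and Prf1. In Prf1 the E-box and the T-box match overlap at 25 and 24 bases before the start. RUNX3 and T-box factors are known regulators of the cytotoxic genes. In these libraries the T-box genes Tbx21 and Eomes had log2 fold changes of -2.5 and -2.15, and Runx3 one of -0.81 with overlapping groups. The Gzmb window held no T-box word. The part of these factors in the levels of the effector genes was not tested.

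The order of the libraries separated the 42 genes into sets. This split was made after the values were seen and uses the vehicle values themselves, so it is described without a test. For 23 genes, including Cd3e, Cd3d, Cd3g, Zap70, Rhoh, Cd8a, Cd8b1, Prf1, Gzmb and Nkg7, vehicle replicate 2 was the highest of the vehicle libraries, with a median ratio to the mean of the other 2 of 1.9. For 15 genes, including Cd4, Tcf7, Lef1, Bcl11b, Gata3, Themis, Trat1, Cd28, Lck, Lat and Cd247, it was the lowest, with a median ratio of 0.391. Some genes were placed by small differences: the ratio was 0.971 for Lck, 0.91 for Lat and 0.927 for Cd247, and 1.13 for Cd8b1 among the 23. The remaining 4 were Txk, Thy1, Tbx21 and Foxp3. The median log2 fold change was -1.63 for the 23 genes and -0.89 for the 15. In ABT263 replicate 2, 37 of the 42 genes had their highest ABT263 value, with a median ratio to the mean of the other 2 ABT263 libraries of 2.81.

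Of the 8 markers of thymocytes, the developing T cells of the thymus, all but Tox were lowest of the vehicle libraries in replicate 2, as in the set of 15. Tox, which mature T cells also express, was highest there, at 4.1, 7.58 and 5.22 CPM with vehicle against 3.35, 2.96 and 1.68 CPM with ABT263 (log2 fold change -1.08, edgeR unadjusted p = 0.031). Rag1 and Dntt, which rearrange and edit antigen receptor genes and are off in mature T cells, were detected in all 6 libraries. Rag1 stood at 62.4, 10.7 and 59.6 CPM with vehicle and at 13.6, 69.6 and 20.5 CPM with ABT263. Dntt stood at 30, 10.6 and 23.3 CPM against 5.91, 25.6 and 9.69 CPM. Both were low in vehicle replicate 2 and high in ABT263 replicate 2, and so did not follow the treatment. The 8 thymocyte markers summed to 131, 41.3 and 121 CPM with vehicle and to 35.1, 185 and 45.5 CPM with ABT263. Of the 185 CPM in ABT263 replicate 2, 55 CPM came from Cd1d1, which stood at 4.17 to 8.59 CPM in the other libraries. That library also had the high adipocyte markers, and the part of other cells in its Cd1d1 level was not tested. Again all but Tox were highest in ABT263 replicate 2 among the ABT263 libraries, and the median log2 fold change of the 8 was -0.42. Thymocytes express the CD3 chains, Cd4, both CD8 chains, Lck, Lat, Tcf7, Lef1, Bcl11b, Themis and Trat1, so RNA of such cells would count toward those genes. Markers of thymic epithelium summed to 1.95 to 4.17 CPM, and of these Foxn1 and Aire stood at 0 to 0.0878 CPM. Ccl25 (1.05 to 1.84 CPM), Prss16 (0.224 to 0.468 CPM) and Psmb11 (0.112 to 0.293 CPM) were detected in all 6 libraries, as were Krt5 and Epcam. Of the markers of lymph node stroma and follicles, Ccl21a had 0 counts in every library, whereas Ccl19 stood at 2.47 to 19 CPM with vehicle and 6.85 to 27.6 CPM with ABT263, highest in replicate 2. Glycam1 (0.196 to 3.37 CPM), Cr2 (0.178 to 5.95 CPM) and Cxcl13 (0.146 to 2.39 CPM) were also detected in all libraries. Lyve1, which lymphatic vessels and some macrophages express, reached 55.2 CPM in ABT263 replicate 2 against 0.566 to 3.4 CPM in the other libraries. The part of thymocyte or lymph node RNA in the levels of the T cell genes was not tested. Granzymes, perforin, Nkg7 and Tbx21 are genes of mature cells.

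**Figure D3:**
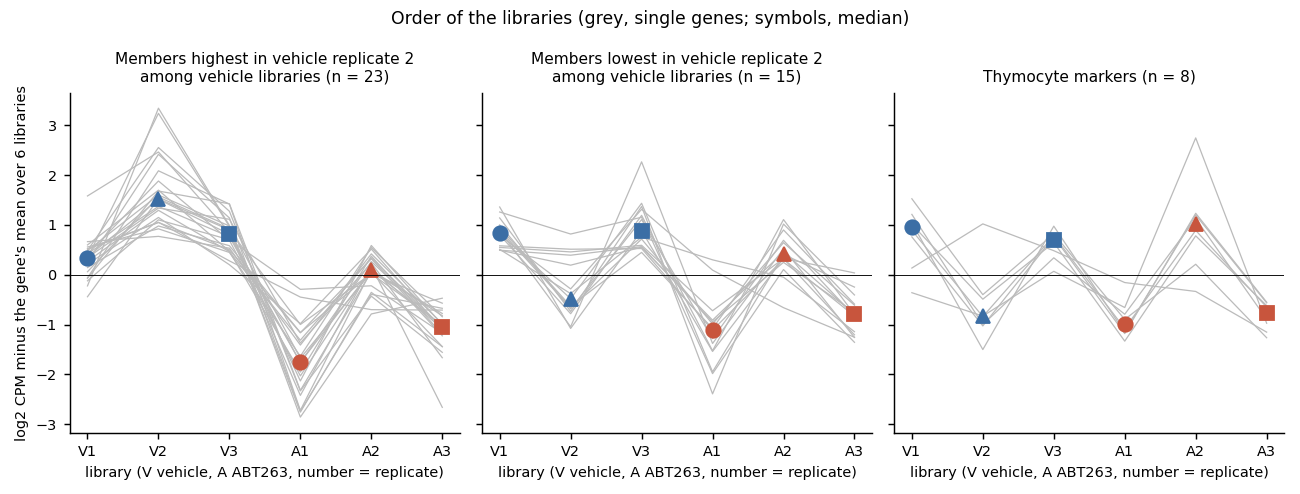
Log2 CPM of each gene minus its mean over the 6 libraries (V, vehicle; A, ABT263; numbers are replicates), with grey lines for single genes and symbols for the median. The left panel holds the 23 T and NK cell genes that were highest in vehicle replicate 2 among the vehicle libraries, the middle panel the 15 that were lowest there, and the right panel the 8 thymocyte markers, whose median has the low V2 and high A2 of the middle panel.

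With both second replicates left out together, 40 of the 42 genes had groups that did not overlap, and 35 were lower at an unadjusted p under 0.05. For that fit of 2 against 2 libraries, 19.8% of all genes had ABT263 below vehicle without overlap and 4.28% were lower at that p. The median log2 fold change of the 42 was then -1.76, and none passed the adjusted p by edgeR. These 2 libraries were picked with earlier results known to set them apart. Since ABT263 replicate 2 held the highest ABT263 value of 37 genes, and vehicle replicate 2 the lowest vehicle value of 15, the choice itself fixes much of the separation, and these values support nothing further.

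Levels set relative to the 3 CD3 genes in the same library describe how the other 39 genes differed beside the T cell receptor chains. The mean log2 CPM of Cd3e, Cd3d and Cd3g stood at 3.3, 4.48 and 3.47 in the vehicle replicates and at 0.93, 3.08 and 1.72 in the ABT263 replicates. Relative to it, 28 of the 39 genes were higher with ABT263 and 11 were lower. For 4 genes each ABT263 library was below each vehicle library on this scale, a pattern that 0.0723% of all genes tested had. The CD3 genes themselves had lower levels with ABT263, so the choice of reference sets that share low. It does not measure how unusual the 4 genes are. The 4 were Gzmb (difference of the group means of log2 ratios -1.33), Nkg7 (-1.17), Prf1 (-0.96) and Tbx21 (-0.82). Gzmb stood at -1.3, -1.6 and -2.18 on this log2 scale with vehicle and at -2.8, -2.48 and -3.81 with ABT263. Nkg7 stood at -0.62, 1.1 and -0.16 against -1.3, -1.09 and -0.81, and Prf1 at -2.54, -1.66 and -1.92 against -2.85, -3.21 and -2.93. These 4 genes act in cytotoxic and type 1 T cells and in NK cells. Gzma (-0.29) and Eomes (-0.35) were also lower on this scale, but their groups overlapped. The exact two-sided permutation test gave p = 0.1 for each of the 4 genes without overlap, the smallest that 3 against 3 samples allow. Groups without overlap always give that value, so the test adds nothing to the separation by which the 4 were picked.

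In the other direction, 7 genes had every ABT263 library above every vehicle library relative to the CD3 genes, but 60.7% of all genes tested did so too, since the CD3 genes themselves had lower levels with ABT263. The 7 were Thy1, Trat1, Txk, Cd27, Sh2d1a, Cd8a and Cd6, with differences from 0.5 (Cd6) to 1.39 (Thy1). Cd8a stood at 2, 1.2 and 1.73 with vehicle and at 2.19, 2.22 and 2.18 with ABT263 on this log2 scale. Klrb1c (0.66) and Ncr1 (0.55) had higher means relative to the CD3 genes, and Klrd1 (-0.8) had a lower one, each with overlapping groups.

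**Figure D4:**
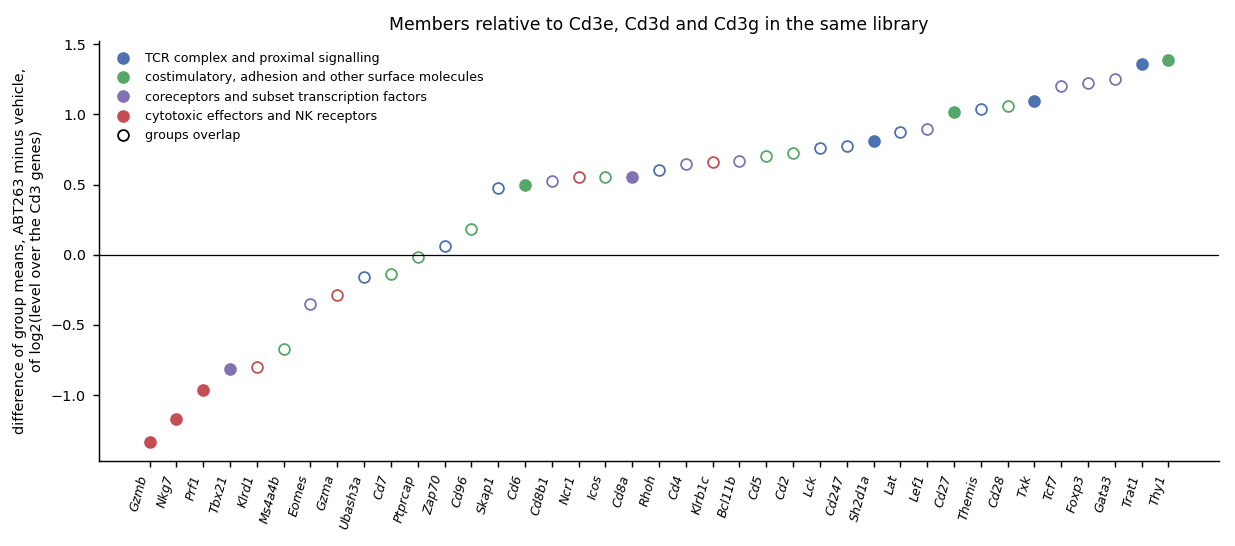
Difference of the group means (ABT263 minus vehicle, n = 3 each) of the log2 level relative to the mean of Cd3e, Cd3d and Cd3g in the same library, for the other 39 genes in order of size and coloured by role. Gzmb, Nkg7, Prf1 and Tbx21 are at the low end with groups that did not overlap (filled symbols), and 28 genes lie above 0.

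Relative to the mean of the 12 pan-leukocyte genes, 33 of the 42 genes were lower with ABT263 and 9 were higher, with a median difference of -0.4 on the log2 scale. The same measure had a median of 0.9 over all genes tested. All 7 cytotoxic and NK genes were lower, with a median of -1.76, against medians of -0.28 for the receptor and signalling genes, -0.4 for the surface molecules and -0.3 for the subset genes. For 0 of the 42 were the groups free of overlap on this scale, and the share over all genes tested was not computed. ABT263 replicate 2 had the lowest pan-leukocyte level (6.28 on the log2 CPM scale, against 6.95 to 8.02 in the other libraries). Some pan-leukocyte genes, such as Coro1a and Itgal, are also expressed by T cells.

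As a mean log2 CPM over the genes, the cytotoxic and NK list stood at 1.07, 1.95 and 1.59 in the vehicle replicates and at -1.49, 0.16 and -1.01 in the ABT263 replicates. Its highest ABT263 value was below its lowest vehicle value. The same was true of the receptor and signalling list, at 2.77, 3.08 and 2.87 against 1, 2.57 and 1.27. For the surface molecules the values were 2.38, 3.22 and 3.01 against 0.77, 2.36 and 1.4, and for the subset genes 2.68, 2.63 and 3.41 against 0.84, 2.59 and 1.51, so that ABT263 replicate 2 almost met the lowest vehicle library in both. All 42 genes together summed to 504, 597 and 574 CPM with vehicle and to 149, 446 and 225 CPM with ABT263. Markers of B cells had 10 of 10 negative log2 fold changes with a median of -2.15, and those of macrophages a median of -0.71.

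**Figure D5:**
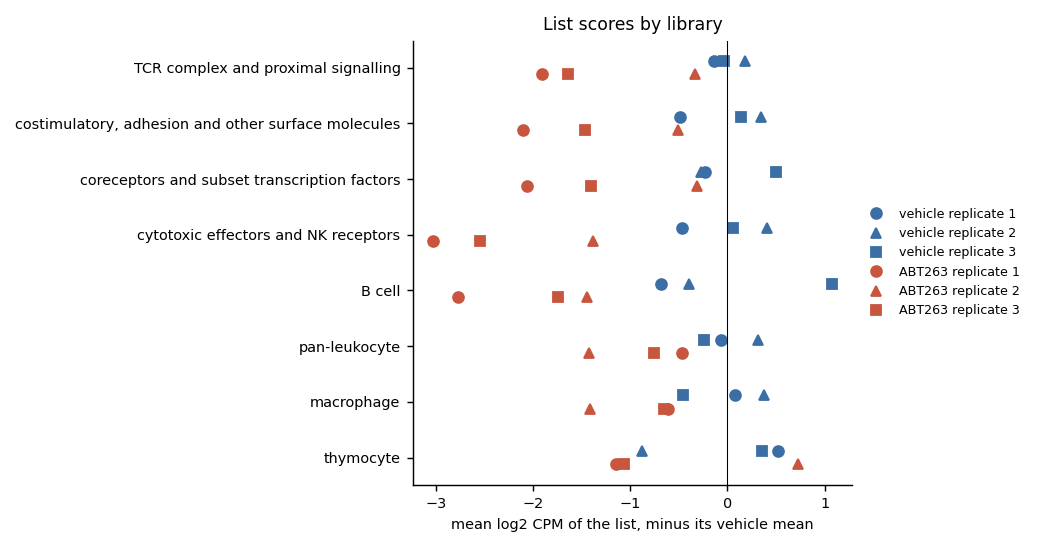
Mean log2 CPM of each list in each library minus the mean of its 3 vehicle libraries, for the 4 role groups and for markers of other blood cells and of thymocytes. In the 4 role groups ABT263 replicate 2 (red triangle) is the closest of the ABT263 libraries to vehicle, and in the pan-leukocyte and macrophage lists it is the farthest. In the thymocyte list it is above all vehicle libraries, with Cd1d1 at 55 CPM there against 4.17 to 8.59 CPM in the other libraries.

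Divided by exon length, the levels ran from 0.125 ± 0.109 CPM per kilobase (Foxp3) to 23.3 ± 25 (Nkg7) in the vehicle libraries (mean ± SD, n = 3). After Nkg7 came Thy1 (22.8 ± 4.43), Tcf7 (19.5 ± 9.3), Cd8b1 (19.4 ± 1.59), Lck (14.3 ± 0.361), Cd4 (12.4 ± 7.09) and Cd8a (11.7 ± 2.08). Neighbours in this order lay within 1 SD of each other except Cd8b1 and Lck. In the ABT263 libraries Thy1 came first at 18.1 ± 9 and Nkg7 was number 10 at 2.38 ± 1.78. Tcf7 (12.8 ± 8.1), Cd8b1 (9.06 ± 6.39), Lck (7.42 ± 4.16), Cd4 (5.77 ± 3.81) and Cd8a (5.77 ± 4.45) followed Thy1 in the same order as with vehicle. The transcription factors Tbx21 and Eomes were low in both groups, at 0.942 ± 0.366 and 0.518 ± 0.325 CPM per kilobase with vehicle and 0.167 ± 0.136 and 0.117 ± 0.0905 with ABT263. Prf1 moved from place 23 to place 34 and Klrd1 from 15 to 27 in the order of the 42, by these group means.

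Lists of further genes of the same pathways gave a background to the 42. For comparison with each list, 3.68% of all genes tested were lower at an unadjusted p under 0.05. Of 27 further genes of T cell receptor signalling, all were tested, 24 had negative log2 fold changes (median -0.67), 11 were lower at an unadjusted p under 0.05 and 0 were higher. The 3 of smallest p were Fyb (-1.09), Lcp2 (-1.21) and Sla (-0.87), adapters that myeloid cells also express, and DESeq2 called the first 2 (adjusted p = 0.0409 and 0.0493). Lcp2, which encodes the partner adapter of Lat, SLP-76, stood at 70.5, 116 and 60.5 CPM with vehicle and at 39.7, 27.3 and 39.7 CPM with ABT263. In Fyb, Lcp2 and Sla, ABT263 replicate 2 was the lowest library, as it was for each macrophage marker except Mrc1. Plcg1 (0.14) and Nck1 (0.23), which most cell types express, were among the 3 with positive values, Sos1 (0.21) being the other.

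Among 38 further genes of T cell state, 35 were tested, 32 had negative log2 fold changes (median -1.62), 15 were lower at an unadjusted p under 0.05 and 0 were higher. Il2, Il4 and Il17a had too few counts to test. The 3 of smallest p were Prdm1 (-1.27), Ccl5 (-3.86) and Fasl (-3.33). Ccl5, a chemokine that effector T cells store and release, stood at 13.8, 151 and 16.1 CPM with vehicle and at 1.93, 6.39 and 4.21 CPM with ABT263. Fasl, the death ligand of cytotoxic cells, stood at 0.768, 4.15 and 0.995 CPM against 0.0413, 0.356 and 0.196 CPM (DESeq2 adjusted p = 0.0493). In both genes the groups did not overlap and vehicle replicate 2 was far above the other vehicle libraries, the order seen in Nkg7 and Klrd1.

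Of 26 further cytotoxic and NK genes, 21 were tested, 20 had negative log2 fold changes (median -2), 9 were lower at an unadjusted p under 0.05 and 0 were higher. The 3 of smallest p were Klri2 (-2.81), Il18rap (-1.52) and Klrc1 (-2.54). Il18rap, a chain of the interleukin-18 receptor, stood at 3.1, 5.94 and 5.1 CPM with vehicle and at 2.08, 1.6 and 1.25 CPM with ABT263 (DESeq2 adjusted p = 0.0199). Klrc1, which encodes the NKG2A partner of CD94, stood at 0.864, 2.25 and 0.804 CPM against 0.114, 0.252 and 0.309 CPM (DESeq2 adjusted p = 0.0383). As in Klrd1, the other chain of that receptor, no ABT263 library reached a vehicle library. Klrc2, Klra1, Klra4, Klra8 and Gzmc had too few counts to test, and Klra4 and Klra8 were at 0 in every library. Of the gamma-delta and receptor constant genes listed, Sox13 (0.25) and Cd163l1 (1.2) were measured, both with overlapping groups, and the others were not analysed here.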

How the data were processed

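RNA of aortic arch plaque was sequenced in 6 libraries. The genotype shared by all mice is not reported here. The authors deposited raw read counts per gene symbol, and the totals ran from 62930547 to 110452098. Per the submitters' processing notes the tools were featureCounts 1.4.6, Subread, Bowtie2 2.2.6 and TopHat2 2.0.14 and the build mm10, without role or order. Not given in the sources used here are the annotation, the strand setting and the treatment of reads shared between genes. Per the labels' protocols, the TruSeq RNA Library Prep Kit v2 was used, which does not mark strand, so reads of overlapping antisense genes cannot be told apart (15 of the 42 genes have exons that overlap another gene), and a rule on shared reads could lower the counts of gene family members such as Ms4a4b, the granzymes and the Klr receptors.

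Groups came from sample titles, and replicates were numbered 1 to 3 in accession order, which pairs nothing. In R 4.3.3, genes were kept by filterByExpr of edgeR 4.0.16 (minimum count 10, minimum total 15), scaled by TMM and tested with the quasi-likelihood F-test, with Benjamini-Hochberg adjustment over 15222 genes and a threshold of 0.05. The SE was taken as the size of the log2 fold change over the root of its F value. DESeq2 1.42.0, limma-voom (limma 3.58.1), other scalings and filters, and fits without each library were alternatives. List means used log2 CPM with a prior count of 2. Lengths and positions came from GENCODE M21 (GRCm38, which mm10 denotes) and promoter windows from RefSeq (GRCm38.p6), at the outermost listed start of a gene. The edgeR fit was tested on simulated data. The 42 genes, the lists and the rule for named genes were chosen with earlier results of these data known. That rule took 14 lineage-defining genes, the 4 of smallest p in each role group and the 3 of smallest p in each further list, and genes named for their order of libraries were added after their values had been seen.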

Additional observations from a re-analysis of the deposited data

How the results depend on the processing

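The log2 fold changes of the 42 genes were compared with other scalings, filters and tools and without single libraries, 540 values in all. None reversed its direction, and 537 stayed on the same side of the adjusted threshold. The other 3 passed it by DESeq2 (Rhoh, Prf1 and Nkg7), so the number called lower by adjusted p was 3 by that tool against 0 by edgeR. Without 1 library at a time, the number lower at an unadjusted p under 0.05 ran from 7 to 33 (21 with all 6 libraries), against 2.29% to 3.96% of all genes (3.68%). The number without overlap ran from 21 to 33 (21), against 8.89% to 14.3% of all genes (6.31%), a share that rises with fewer libraries, and the median log2 fold change of the 42 from -1.86 to -1.07 (-1.23). In the same fits the median ran from -1.68 to -0.86 for the receptor and signalling genes, from -1.88 to -0.96 for the surface molecules, from -1.77 to -0.64 for the subset genes and from -3.35 to -2.02 for the cytotoxic and NK genes. With both second replicates left out, a choice made with their values known, 35 genes were lower at that p and 40 did not overlap, and the medians were -1.76 for all 42 and -1.91 for the subset genes. Other scalings and filters left the number lower at that p between 16 and 23, against 2.77% to 3.81% of all genes. The number without overlap was between 16 and 21, against 4.01% to 6.7% of all genes. The filter of at least 1 CPM in 3 libraries kept only 36 of the 42, with 19 lower at that p and 20 without overlap. No paired analysis was possible because the labels name no pairs, and the numbers in the sample titles differ between the groups. Depth limited Foxp3 and Ncr1 most, with 3 and 8 counts in their lowest libraries.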
